A study of Mus musculus with 24 samples.

Results

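AP-1 is a family of dimeric transcription factors, and its Fos and Jun subunits, together with the zinc-finger factors of the Egr family, are products of immediate early genes. The genes followed here were Fos, Fosb, Fosl1 and Fosl2 (the Fos subunits), Jun, Junb and Jund (the Jun subunits), Atf3, Egr1 and Egr2. They were chosen by symbol, and all 10 were present among the 54658 gene symbols of both count tables. RNA was sequenced in 24 libraries from male C57BL/6 mice of 7 to 12 weeks. In the sterile peritonitis experiment, thioglycollate medium (TGC) was injected intraperitoneally and the animals received β-nicotinamide mononucleotide (β-NMN, a precursor of NAD+) at 185 mg/kg per day or saline vehicle. The lavage cells of 6 vehicle and 6 β-NMN mice were then exposed to E. coli for 6 h in culture, so that every peritoneal library was of stimulated cells. In the sepsis experiment, cecal ligation and puncture (CLP) was followed by the same dose or by saline, and the heart and lung of 3 vehicle and 3 β-NMN mice were taken a day later. None of the 24 libraries was of unstimulated cells or of sham-operated mice, so induction of these genes could not be read from them.

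Immediate early genes are transcribed without the need for new protein synthesis. Growth factors, stress and bacterial products reach them through MAP kinases, which act on ternary complex factors at serum response elements and on CREB or ATF proteins at cyclic AMP response elements (CRE). Fos proteins bind DNA only as partners of Jun proteins, whereas Jun proteins can also pair with one another. In macrophages, AP-1 takes part in the transcription of cytokines and proteases, ATF3 is known as a repressor of cytokine genes after Toll-like receptor signalling, and Egr1 and Egr2 are growth-related factors, of which Egr2 is also associated with alternative activation.

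The start regions of the genes are shown first so that the values can be read beside them. RefSeq windows on GRCm38.p6, from 250 bases before to 50 bases after each annotated start, were used for 8 of the 10 genes. For Fosl1 and Egr1 no window was used. The part from 120 bases before to 50 bases after the start is given 5′ to 3′ on the strand of the gene. Fos, Fosb and Fosl2 are shown as genes that were lower with β-NMN in peritoneal cells. Jun, Atf3 and Egr2 are shown as genes that were not. The windows of Junb and Jund, which were also lower, held no site of the kinds marked in capitals and are not shown. Capitals mark matches, on either strand, to a CRE core (ACGTCA), a Jun-type AP-1 site (TGACATCA), an EGR site (GCGNGGGCG) or the CArG box of serum response factor.
Fos (chr12:85473770-85473939, plus strand): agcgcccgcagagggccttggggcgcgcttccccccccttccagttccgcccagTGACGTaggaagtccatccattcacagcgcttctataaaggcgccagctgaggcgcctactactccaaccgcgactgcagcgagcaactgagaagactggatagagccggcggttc
Fosb (chr7:19309996-19310165, minus strand): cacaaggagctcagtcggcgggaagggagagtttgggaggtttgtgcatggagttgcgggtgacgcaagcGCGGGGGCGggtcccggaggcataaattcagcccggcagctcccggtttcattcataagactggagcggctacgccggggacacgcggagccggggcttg
Fosl2 (chr5:32136352-32136521, plus strand): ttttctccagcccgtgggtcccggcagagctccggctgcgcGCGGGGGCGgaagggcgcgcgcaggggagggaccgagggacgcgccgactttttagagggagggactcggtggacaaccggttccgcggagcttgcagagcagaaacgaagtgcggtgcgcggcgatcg
Jun (chr4:95052173-95052342, minus strand): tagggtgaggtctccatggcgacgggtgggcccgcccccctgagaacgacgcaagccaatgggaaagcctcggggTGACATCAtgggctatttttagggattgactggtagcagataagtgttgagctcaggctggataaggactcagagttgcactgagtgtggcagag
Atf3 (chr1:191183284-191183453, minus strand): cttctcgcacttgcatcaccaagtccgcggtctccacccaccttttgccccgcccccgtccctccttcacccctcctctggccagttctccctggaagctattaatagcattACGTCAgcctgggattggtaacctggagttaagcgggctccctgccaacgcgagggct
Egr2 (chr10:67537749-67537918, plus strand): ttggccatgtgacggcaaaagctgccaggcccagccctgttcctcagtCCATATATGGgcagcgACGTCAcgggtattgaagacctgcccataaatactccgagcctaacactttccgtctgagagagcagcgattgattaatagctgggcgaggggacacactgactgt

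Counted from the RefSeq start, whose first base is 1, the Fos window held a CRE core at -66 and a TATAAA at -33. The Jun window held the Jun-type site at -45, and the Atf3 window held a CRE core at -8. Egr2 has several annotated starts, and the window shown held a CArG box at -72 beside a CRE core at -56. The windows of Fosb and Fosl2 held an EGR site at -50 and -79. Over the 32851 mouse windows of the same length that were used, a CRE core was found in 7.51% and a Jun-type site in 3.62%. An EGR site was found in 5.55%, a CArG box in 1.63% and TATAAA in 13.6%. The shorter TGACG, which overlaps the CRE core, occurred in 20.8% of windows and was also present in those of Fos, Fosb, Junb, Atf3 and Egr2. The consensus AP-1 site (TGANTCA, 7.81% of windows) and the full CRE (TGACGTCA, 1.79%) had no match in a window of the 8 genes. The Jund window (chr8:70697489-70697788) ends before the start of the gene model given below, and the Atf3 window lies inside its model. A match describes the letters of these windows, and binding of any factor was not measured.

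On GRCm38, the GENCODE M21 gene models lie at chr12:85473890-85477273 for Fos, chr7:19302696-19310051 for Fosb, chr19:5447547-5455946 for Fosl1 and chr5:32135801-32157842 for Fosl2. Those of the other AP-1 genes lie at chr4:95049034-95052222 for Jun, chr8:84974484-84978718 for Junb, chr8:70698949-70700616 for Jund and chr1:191170296-191218039 for Atf3, and that of Egr2 lies at chr10:67535475-67542188. The exons of Fosl1, Jun, Junb and Jund overlap exons of a gene on the opposite strand (Ccdc85b, Junos, Prdx2 and Gm11175). The strand setting of the read counting was not stated in the methods or labels, and reads from the partners of each pair could not be separated.

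Total counts ranged from 31126823 to 112456050 in the 12 peritoneal libraries, from 27319513 to 68523239 in hearts and from 8915366 to 28356786 in lungs. The 2 organs of vehicle mouse 2 stood apart from the rest. The SD across genes of the log2 difference from the other libraries of the organ was 1.05 for its heart, against 0.43 to 0.62 for the other hearts, and 1.62 for its lung, against 0.48 to 0.63. Mitochondrially encoded genes took 12.9% of counts in its heart and 18.2 to 22.7% in the others. Lung epithelial markers summed to 58200 to 103000 CPM in lungs and to at most 2.80 CPM in hearts. Leaving out this mouse was tried for every organ comparison. Counts were put on a counts-per-million (CPM) scale with TMM factors within each tissue, fold changes are β-NMN over vehicle on the log2 scale with their standard errors, and a gene was called at an adjusted p below 0.05.

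In E. coli-stimulated peritoneal cells, 7 of the 10 genes were lower after β-NMN and 1, Atf3, was higher. Among all 14985 genes tested, 27.9% were called lower and 23.7% higher. Every β-NMN library lay below every vehicle library for those 7 genes, compared with 14.0% of all genes. The log2 fold change was negative for 9 of the 10 genes, against 51.5% of all genes, and the median over the 10 genes was -1.33 against -0.02 over all genes. In bulk RNA, fewer cells that express a gene and less RNA per cell cannot be told apart.

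The Fos subunits were all lower. Fos had 49.3, 70.5 and 108 CPM as the lowest, median and highest vehicle library and 21, 23.4 and 34.1 CPM with β-NMN. The groups did not overlap, and the level was 3.0-fold lower (log2 fold change -1.59, SE 0.18, adjusted p = 4.48e-06). Fosl2, which encodes Fra-2, was the most abundant Fos-family RNA per length in peritoneal cells and had a vehicle range of 579 to 847 CPM with a median of 739. With β-NMN its range was 131 to 231 CPM with a median of 143, which amounted to 4.51-fold less (log2 fold change -2.17, SE 0.15, adjusted p = 5.17e-08). Fosl2 ranked 68th by p among all genes tested.

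Fosl1, which encodes Fra-1, and Fosb were expressed at low levels and had the largest fold changes of the set. Fosl1 went from 5.18, 8.53 and 17.2 CPM (lowest, median and highest) to 0.756, 1.11 and 2.21 CPM, a log2 fold change of -2.97 (SE 0.32, adjusted p = 3.36e-06). The β-NMN library with the fewest Fosl1 reads held 41. Fosb went from 4.53, 6.81 and 11.8 CPM to 1.07, 1.56 and 2.04 CPM (log2 fold change -2.34, SE 0.25, adjusted p = 2.71e-06). Neither gene overlapped between the groups.

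The Jun subunits did not move together. Junb, which encodes a subunit that forms weaker activators than JUN itself, was the most abundant, with 2020, 2300 and 2350 CPM in vehicle and 788, 1050 and 1490 CPM in β-NMN libraries. Its groups did not overlap and it was 2.10-fold lower (log2 fold change -1.07, SE 0.13, adjusted p = 7.54e-06). Jund, the more constitutive subunit, was 1.42-fold lower, from 63.0 ± 5.77 to 44.3 ± 5.15 CPM (SD, n = 6), with an adjusted p of 3.70e-04 by edgeR. Jun ranged from 262 to 561 CPM in vehicle and from 329 to 502 CPM in β-NMN libraries. The β-NMN range for Jun lay inside the vehicle range, and its log2 fold change of -0.17 (SE 0.17) did not pass the test (adjusted p = 0.434). With limma-voom and quality weights the Jun value was -0.32 with an adjusted p of 0.0378.

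Atf3 was the only one of the 10 genes that rose. It had 1230, 1550 and 2060 CPM as lowest, median and highest vehicle library and 1920, 2100 and 2300 CPM with β-NMN, so that vehicle replicate 1, at 2060 CPM, lay within the β-NMN range. The increase was 1.32-fold (log2 fold change 0.40, SE 0.11, adjusted p = 8.44e-03). Among libraries of the lower depth range alone, a split chosen after seeing the totals, it was 0.33 with an adjusted p of 0.141.

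The zinc-finger pair split as well. Egr1 went from 129, 171 and 237 CPM to 40.4, 43.6 and 76.1 CPM without overlap, a 3.46-fold lower level (log2 fold change -1.79, SE 0.18, adjusted p = 1.44e-06). Egr2 ranged from 88.9 to 106 CPM in vehicle and from 64.2 to 127 CPM in β-NMN libraries, with a log2 fold change of -0.12 (SE 0.14, adjusted p = 0.523). Its β-NMN libraries spread more widely than its vehicle libraries, with an SD of 24.0 against 6.29 CPM. An exact two-sided permutation test of mean log2 CPM gave p = 0.00216, the smallest that 6 against 6 libraries allow, for each of the 7 genes that were lower. The same exact permutation test gave 0.00649 for Atf3, 0.515 for Jun and 0.331 for Egr2.

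**Figure D1:**
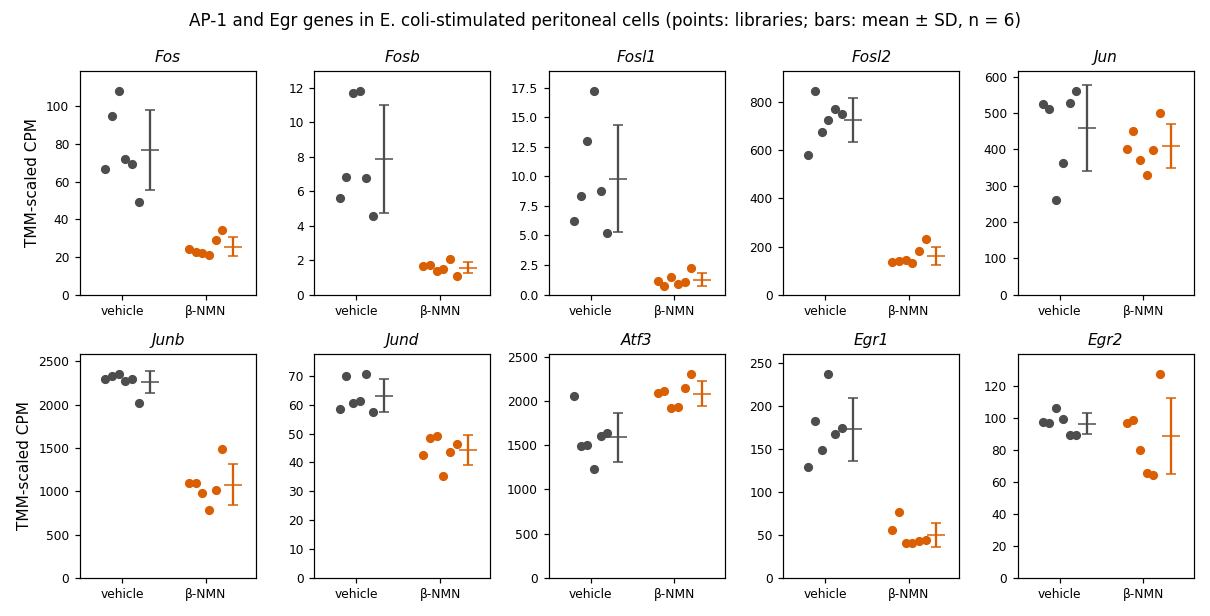
TMM-scaled CPM of each gene in the 6 vehicle (grey) and 6 β-NMN (orange) peritoneal libraries, with the mean and SD beside the points and every axis starting at 0. The β-NMN points lie below all vehicle points for Fos, Fosb, Fosl1, Fosl2, Junb, Jund and Egr1, overlap them for Jun and Egr2, and lie mostly above them for Atf3.

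Levels of different genes were compared per length, as RPKM (CPM per kilobase of exon). In vehicle peritoneal cells the order was Junb (984 ± 53.0 RPKM, SD), Atf3 (736 ± 127), Jun (144 ± 37.2), Fosl2 (74.9 ± 9.40), Egr1 (38.6 ± 8.22), Jund (37.8 ± 3.46), Fos (32.5 ± 8.98), Egr2 (28.3 ± 1.85), Fosl1 (4.81 ± 2.22) and Fosb (1.26 ± 0.501). The ranges over libraries overlapped between Junb and Atf3, between Jun and Fosl2, and between neighbours from Egr1 to Egr2. With β-NMN, Atf3 stood first at 968 ± 66.0 RPKM, ahead of Junb at 467 ± 100.0 RPKM, and the ranges of these genes, 893 to 1070 and 342 to 646 RPKM, no longer overlapped. Within the Jun family, the share of RNA per length that was Junb went from 84.4% ± 3.21 to 74.9% ± 1.65 (SD, n = 6), and that of Jun from 12.3% ± 3.20 to 20.8% ± 1.22. All β-NMN libraries had a higher Jun share (18.9 to 22.1%) than any vehicle library (7.19 to 16.1%). Within the Fos family, Fosl2 held 66.3% ± 6.51 in vehicle and 58.5% ± 1.49 in β-NMN libraries, ranges of 56.3 to 76.2% and 55.7 to 60.2% that overlapped. Fos held 28.4% ± 5.57 and 38.4% ± 1.5, and its ranges (20.6 to 37.0% and 36.6 to 41.0%) met at the edge. Fosl1 and Fosb together stayed the minor Fos transcripts in both groups.

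**Figure D2:**
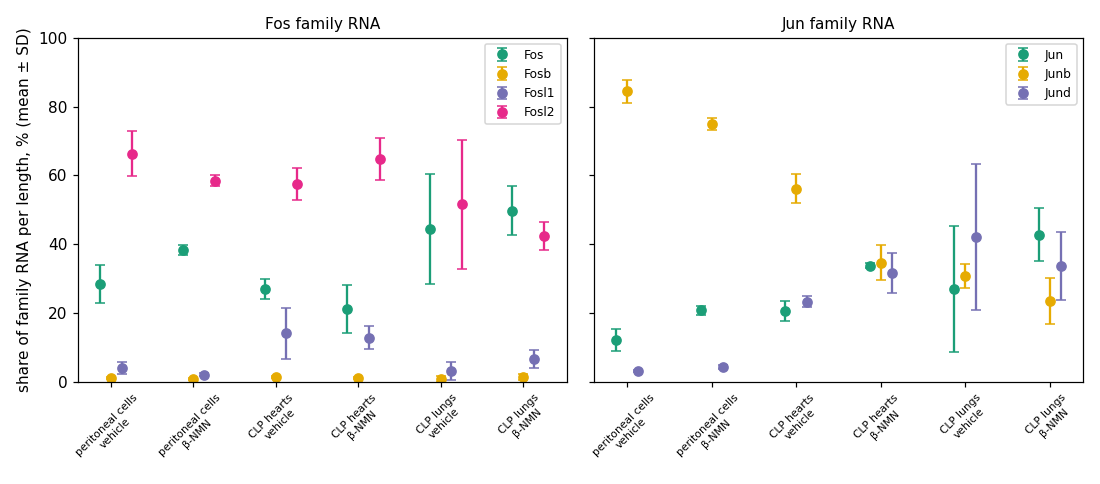
Share of each subunit in the summed RNA per length of the Fos family (left) and the Jun family (right), in percent, by tissue and treatment; points are means and bars are SDs over 6 peritoneal or 3 organ libraries. Junb dominated the Jun family in peritoneal cells, with 84.4% in vehicle and 74.9% in β-NMN libraries, and Fosl2 the Fos family.

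After the group means were subtracted, the genes whose log2 CPM varied most like Fos over the 12 peritoneal libraries, among 6827 genes of sufficient level, were Rhou (r = 0.91), Tmem135 (r = 0.91) and Rnd1 (r = 0.90). For Atf3 they were Ly86 (r = 0.96), Rab9 (r = 0.96) and B2m (r = 0.95). Within the set, Junb varied most like Egr2 (r = 0.86), and Fosb varied opposite to Jun (r = -0.77). These values describe 12 points that share library depth and culture, and no test was made of them.

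Genes that act around AP-1 were examined in groups chosen with earlier results of these data known. Their counts come from the same fit and are read beside the 27.9% of all genes that were lower and the 23.7% higher. Of 27 other immediate early genes tested, 21 were lower and 1 was higher, with a median log2 fold change of -1.37. Plk3, a stress-activated kinase, fell by 3.45 on the log2 scale (22.3 ± 4.02 to 2.06 ± 0.632 CPM, SD), and Ier2 fell by 3.71 (114 ± 29.0 to 8.77 ± 3.39 CPM). Btg2, an antiproliferative gene, fell by 2.43 and the nuclear receptor gene Nr4a3 by 2.51. Their adjusted p lay between 1.03e-08 and 3.13e-08, and the groups did not overlap for any of these 4 genes. The exception was Rhob, an immediate early GTPase gene, which rose from 197 to 424 CPM (log2 fold change 1.11, adjusted p = 1.72e-05).

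Of the 12 feedback regulators, 9 were lower and 1 was higher. Dusp1 and Dusp2, phosphatases that switch off MAP kinases, fell by 1.87 (746 ± 55.6 to 204 ± 45.6 CPM) and 2.25 (248 ± 30.0 to 52.1 ± 8.05 CPM) on the log2 scale. Dusp5 fell by 1.34, and Nab2, a co-repressor of Egr proteins that Egr1 itself induces, fell by 1.75, with adjusted p from 5.76e-09 to 2.28e-07 for the 4 genes. Spred1, an inhibitor of Ras signalling, rose by 0.58 (adjusted p = 2.48e-03). Among 16 upstream factors and kinases, 8 were lower and 3 higher. Mapk8, which encodes the kinase JNK1, fell by 2.14 (25.7 ± 6.33 to 5.83 ± 0.663 CPM, adjusted p = 8.29e-08). Mapk14, which encodes p38α, rose by 0.93 (13.9 ± 0.850 to 26.4 ± 2.81 CPM, adjusted p = 9.87e-07), and Mapk3, which encodes ERK1, rose by 0.74 (adjusted p = 3.74e-05). Mkl1, a coactivator of serum response factor, fell by 1.17, and Crem, a CRE-binding factor, by 1.49.

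Among 11 further partners of the AP-1 and small Maf families, 4 were lower and 2 were higher, with a median log2 fold change of -0.16. Maff fell by 1.75 (274 ± 38.7 to 81.5 ± 18.2 CPM, adjusted p = 2.44e-07), and Batf and Jdp2, whose products can pair with Jun proteins, fell by 0.76 and 0.93. Batf3 rose by 1.69 (5.93 ± 2.50 to 19.1 ± 3.98 CPM, adjusted p = 9.36e-05) and Atf7 by 0.53. The 20 AP-1 target genes tested went in both directions, with 9 lower and 8 higher. Il1b fell by 3.17 (2480 ± 920 to 275 ± 64.3 CPM), Areg by 3.48, Ptgs2 by 1.92 and Il6 by 1.57, with adjusted p from 2.55e-07 to 1.11e-06. Hbegf, a growth factor gene, rose by 1.32 (adjusted p = 1.73e-06) and Plau, which encodes urokinase, by 1.11 (adjusted p = 1.39e-05). Rhob, Spred1, Mapk3, Atf7, Hbegf and Plau were named after their values were seen.

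**Figure D3:**
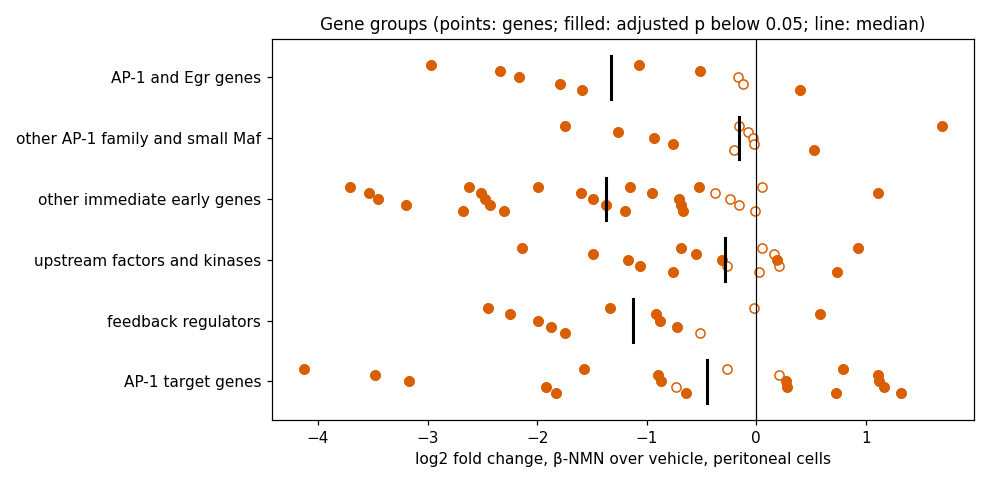
Log2 fold change of each gene (β-NMN over vehicle) in peritoneal cells for the AP-1 and Egr genes and for 5 related gene groups; filled points were called and the black line is the median of the group. The medians were -1.33 for the AP-1 and Egr genes, -1.37 for the other immediate early genes and -0.46 for the AP-1 target genes, whose points lie on both sides of 0.

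RNA of cell-type markers in the lavage also differed with treatment. Among all genes, 27.9% were lower and 23.7% higher, and marker RNA alone does not show whether cell numbers changed. Of 8 macrophage markers 4 were higher and none was lower, and their summed level was 5690 to 8660 CPM in vehicle and 10700 to 12400 CPM in β-NMN libraries. Neutrophil markers were lower for 5 and higher for 1 of 7 tested (summed level 491 to 998 against 334 to 468 CPM, with Camp below 1 CPM throughout), T and NK cell markers for 6 of 6 (11.5 to 65.0 against 7.68 to 11.4 CPM), B cell markers for 3 of 5 (37.1 to 189 against 25.9 to 92.3 CPM) and fibroblast markers for 4 of 4 (74.1 to 812 against 17.1 to 64.4 CPM). All 5 erythroid genes were higher (2.91 to 38.8 against 52.5 to 133 CPM). Mitochondrially encoded genes took 0.504 to 0.653% of counts in vehicle and 0.599 to 0.886% in β-NMN libraries. The part of these differences in the AP-1 and Egr values was not tested. Depth overlapped the groups unevenly, with 3 vehicle and 2 β-NMN libraries at 90571560 to 112456050 counts and the others at 31126823 to 53319385. Within that higher range the 7 genes kept their direction with log2 fold changes from -3.36 to -0.40, where Jund alone lost its call (adjusted p = 0.0702). Within the lower range all 7 genes were called, from -2.67 to -0.50.

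In hearts after CLP, all 10 genes had a negative log2 fold change, against 50.7% of the 16245 genes tested, and their median was -1.41. Without vehicle mouse 2, 9 of the 10 were negative with a median of -0.83, against 50.3% of all genes. None of the 10 was called by edgeR, which called 0 genes in the whole table. Across all genes, 1837 had an unadjusted p below 0.05, DESeq2 called 283 genes and limma-voom 3. DESeq2 called 5 of the 10 genes lower (Fos, Fosb, Junb, Egr1 and Egr2, adjusted p from 2.5e-05 to 0.0365), among 1.48% of all genes, and limma-voom called Junb. By edgeR, 6 of the 10 genes (Fos, Fosb, Fosl2, Junb, Egr1 and Egr2) had an unadjusted p below 0.05 with a lower value, compared with 7.63% of all genes. For the same 6 genes every β-NMN heart lay below every vehicle heart, compared with 11.5% of all genes. An exact permutation test of 3 against 3 mice cannot go below p = 0.1, the value that these 6 genes had.

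Junb had the smallest p of the set in the heart. It had 129, 249 and 144 CPM in vehicle mice 1 to 3 and 60.6, 59.8 and 56.4 CPM in β-NMN mice. The β-NMN hearts lay close together, while vehicle mouse 2 was well above the other vehicle mice. The log2 fold change was -1.56 (SE 0.26, adjusted p = 0.435 by edgeR), Junb ranked 11th by p among all heart genes, and without vehicle mouse 2 the value was -1.22 with an adjusted p of 0.0168. DESeq2 and limma-voom gave Junb adjusted p of 2.5e-05 and 0.0320.

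Fos had 9.90, 19.8 and 9.25 CPM in vehicle hearts and 4.92, 5.78 and 2.88 CPM in β-NMN hearts (log2 fold change -1.52, SE 0.38, unadjusted p = 5.63e-03 by edgeR, exact permutation p = 0.1). Egr1 had 26.6, 83.5 and 28.1 CPM in vehicle and 8.71, 17.7 and 8.64 CPM in β-NMN hearts (log2 fold change -1.97, SE 0.53). Vehicle mouse 2 was the highest heart for both, and without it the log2 fold changes were -1.09 for Fos and -1.23 for Egr1. Fosl2 had 80.9, 179 and 86.3 CPM against 57.2, 51.7 and 61.7 CPM (log2 fold change -1.02, SE 0.31), which became -0.56 without that mouse. Fosb and Egr2 rested on low counts. Fosb had 105, 114 and 47 reads in vehicle and 15, 48 and 41 reads in β-NMN hearts, and its log2 fold change was -1.29 (SE 0.31), or -1.10 without vehicle mouse 2. Egr2 had 98, 399 and 46 reads against 7, 52 and 17 reads, with a log2 fold change of -2.77 (SE 0.87) that was -1.49 without vehicle mouse 2.

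The groups overlapped in hearts for Jun, Jund, Atf3 and Fosl1. Jun had 77.8 to 97.4 CPM in vehicle and 73.6 to 93.5 CPM in β-NMN hearts, a log2 fold change of -0.06 (SE 0.15) that became 0.04 without vehicle mouse 2. Jund had a value of -0.34 (SE 0.28) and Atf3 of -0.93 (SE 0.41), and these were -0.11 and -0.40 without that mouse, which was the highest heart for both. Fosl1 reached 16.2 CPM in vehicle mouse 2 but 2.78 and 2.91 CPM in the other vehicle hearts, against 1.64 to 2.88 CPM with β-NMN, so that its log2 fold change of -1.62 shrank to -0.26 without that mouse. Per length, Junb led the vehicle hearts at 75.4 ± 28.4 RPKM (SD, n = 3) and made up 56.2% ± 4.25 of Jun-family RNA. In β-NMN hearts Junb (25.6 ± 0.972 RPKM), Jun (25.3 ± 3.46 RPKM) and Jund (24.2 ± 8.29 RPKM) had overlapping ranges.

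**Figure D4:**
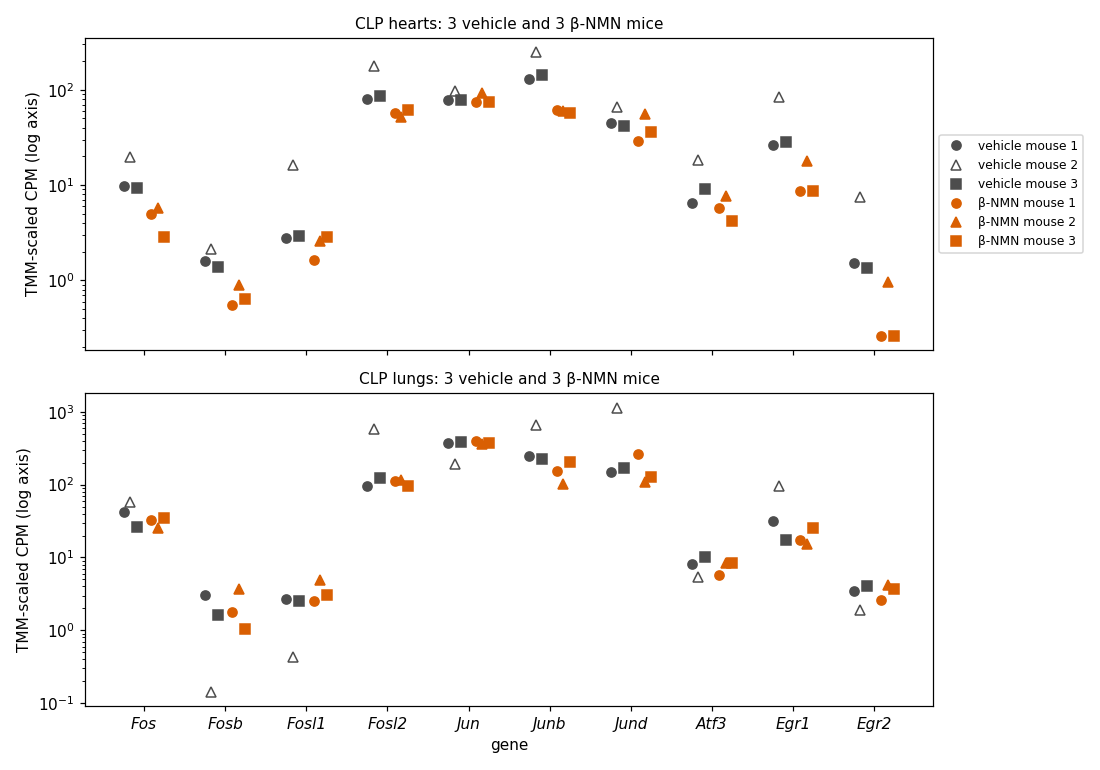
TMM-scaled CPM (log axis) of each gene in the hearts (top) and lungs (bottom) of 3 vehicle (grey) and 3 β-NMN (orange) mice, each shape being 1 mouse of its group and the open triangle vehicle mouse 2. In hearts the orange points lie below all grey points for Fos, Fosb, Fosl2, Junb, Egr1 and Egr2, and in lungs for Junb alone.

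Related genes in hearts were counted in the same way, with none called by edgeR. DESeq2 called 5 other immediate early genes, 2 feedback regulators and 7 AP-1 target genes lower, beside the 1.48% of all genes, and 1 immediate early gene, Plk2, higher, among 0.265%. The log2 fold change was negative for 21 of 26 other immediate early genes, 10 of 12 feedback regulators and 18 of 20 AP-1 target genes, beside the 50.7% of all genes. Without vehicle mouse 2 these counts were 20, 9 and 17, and the medians went from -0.51 to -0.32, from -0.42 to -0.21 and from -1.43 to -0.99. Apold1, an endothelial immediate early gene, had 23.8 ± 4.12 CPM in vehicle and 13.6 ± 0.512 CPM in β-NMN hearts (SD, n = 3), and Plk2 went the other way with 17 ± 1.03 and 26.1 ± 1.59 CPM. Il6 had 1.03 to 7.62 CPM in vehicle and 0.0372 to 0.0924 CPM in β-NMN hearts, and Ccl2 9.74 to 26.3 and 3.91 to 5.37 CPM. Dusp2 had 1.89 to 4.66 and 0.425 to 1.01 CPM, and Spry4, a Ras pathway inhibitor gene, 16.9 to 29.3 and 10.4 to 12.1 CPM. Maff (28.0 ± 1.62 and 21.2 ± 1.03 CPM) and Batf (2.53 ± 1.18 and 1.31 ± 0.258 CPM) were the other AP-1 partners with the smallest p, and Elk3 (32.9 ± 5.13 and 42.7 ± 3.56 CPM) and Rps6ka3 (63.0 ± 14.2 and 44.8 ± 6.90 CPM) the upstream genes. Summed cardiomyocyte markers were 30500 to 49700 CPM in vehicle and 52000 to 56900 CPM in β-NMN hearts, with the lowest in vehicle mouse 2. Neutrophil markers (7 of 7 with negative values) summed to 21.3 to 36.4 and 14.0 to 15.6 CPM. Mesothelial markers (4 of 4 negative) summed to 98.0 CPM in vehicle mouse 2, 9.82 and 12.1 CPM in the other vehicle hearts and 5.66 to 10.1 CPM with β-NMN, and their median log2 fold change of -3.54 was -0.80 without that mouse. Fibroblast markers (4 of 4 negative) summed to 1830 CPM in vehicle mouse 2, 1100 and 907 CPM in the other vehicle hearts and 758 to 1060 CPM with β-NMN. Endothelial markers summed to 758 to 781 CPM in vehicle and 796 to 955 CPM in β-NMN hearts. Of 8 macrophage markers 5 were negative, and their sum was 272 to 409 CPM in vehicle and 283 to 484 CPM in β-NMN hearts. No marker was called by edgeR. DESeq2 called the macrophage markers Mrc1 (45.4 to 17 CPM) and Itgam (34.7 to 24.2 CPM) lower and the endothelial marker Tie1 (140 to 196 CPM) higher. Their part in the AP-1 values was not tested.

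In lungs of the same mice, 6 of the 10 genes had a negative log2 fold change, against 49.9% of the 17008 genes tested, with a median of -0.26. edgeR called 0 genes in the table, 301 genes had an unadjusted p below 0.05, and DESeq2 and limma-voom called 9 and 7 genes, none of the 10 among them. Junb was the only one whose β-NMN lungs all lay below the vehicle lungs, compared with 3.75% of all genes. It had 248, 650 and 225 CPM in vehicle mice 1 to 3 and 153, 102 and 202 CPM in β-NMN mice (log2 fold change -1.29, SE 0.49, unadjusted p = 0.0345 by edgeR, exact permutation p = 0.1). Without vehicle mouse 2 the Junb value was -0.63.

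Vehicle mouse 2 set the lung values of several other genes. Jund had 1140 CPM in its lung and 149 and 169 CPM in the other vehicle lungs, against 108 to 260 CPM with β-NMN, and its log2 fold change went from -1.56 to 0.05 without that mouse. Fosl2 had 580 CPM in that lung against 96.6 and 125 CPM in the other vehicle lungs, and went from -1.31 to -0.04. Egr1 had 95.9 CPM against 31.4 and 17.2 CPM and went from -1.30 to -0.32. That lung had the lowest depth and held 1 Fosb and 3 Fosl1 reads, whereas Jun, at 194 CPM, was below the 360 to 395 CPM of the other 5 lungs. The log2 fold changes were 0.84 (SE 0.64) for Fosl1, 0.38 (SE 0.87) for Fosb and 0.24 (SE 0.32) for Jun, and 0.43, -0.10 and -0.02 without that mouse. Fos had 42.5, 57.2 and 26.6 CPM in vehicle and 33.1, 25.2 and 34.3 CPM in β-NMN lungs (log2 fold change -0.44, SE 0.32), which became -0.16 without vehicle mouse 2. Atf3 and Egr2 had log2 fold changes of -0.07 (SE 0.34) and 0.13 (SE 0.42), or -0.27 and -0.11 without it. Over the 10 genes, 8 were negative without that mouse and the median was -0.11, against 46.2% negative among all genes.

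Among related genes in lungs, 21 of 26 other immediate early genes, 11 of 12 feedback regulators and 14 of 20 AP-1 target genes had negative values, beside the 49.9% of all genes, and neither edgeR nor DESeq2 called any. Without vehicle mouse 2 these counts were 18, 8 and 11, beside 46.2%. Nr4a1 had 27.0 to 33 CPM in vehicle and 15.4 to 22.9 CPM in β-NMN lungs, and Il1b 12.4 to 14.5 and 5.79 to 9.57 CPM. For Ier5l (18.7 to 66.7 and 11.3 to 15.2 CPM), Spry4 (39.3 to 149 and 20.5 to 34.7 CPM) and Plaur (49.7 to 144 and 31.1 to 45.8 CPM) the groups did not overlap either, as for 3.75% of all genes, and their log2 fold changes of -1.40, -1.46 and -1.07 were -0.54, -0.57 and -0.42 without vehicle mouse 2. Spry2 (35.4 to 178 and 33.4 to 42.8 CPM) and Elk4 (74.8 to 235 and 63.2 to 126 CPM) overlapped, and their log2 fold changes of -1.14 and -0.49 were 0.01 and 0.27 without vehicle mouse 2. Batf overlapped as well (10.4 to 19.2 and 8.55 to 10.5 CPM), with a log2 fold change of -0.54, or -0.24 without that mouse. Elk3 had 61.0 ± 4.66 and 79.1 ± 10.6 CPM (SD, n = 3). Of 8 macrophage markers 4 had positive and 4 negative values, with a median of 0.04, and their sum, mostly Lyz2, was 1460 CPM in vehicle mouse 2, 4070 and 4370 CPM in the other vehicle lungs and 5080 to 5550 CPM with β-NMN. Heat shock genes summed to 5380 CPM in vehicle mouse 2 and to 1220 to 2960 CPM in the other 5 lungs, and erythroid genes to 11900 CPM in that lung and 2000 to 4090 CPM in the others. Cardiomyocyte markers summed to 252 to 415 CPM in vehicle and 74.7 to 245 CPM in β-NMN lungs. Endothelial markers (4 of 4 with positive values, median 0.52, or 0.15 without vehicle mouse 2) summed to 682 CPM in vehicle mouse 2 and to 1310 to 1930 CPM in the other 5 lungs. Their part in these values was not tested.

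**Figure D5:**
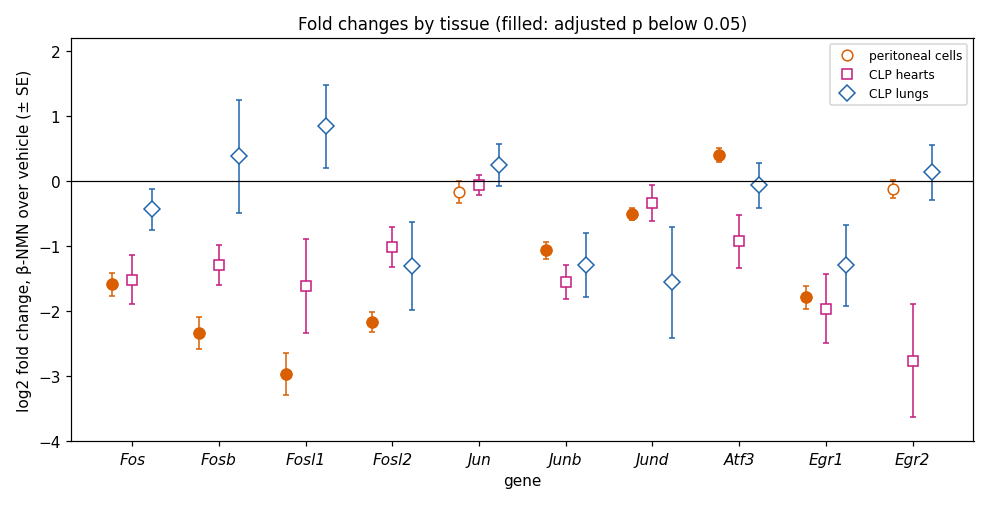
Log2 fold change (β-NMN over vehicle) with its standard error for the 10 genes in peritoneal cells (circles), CLP hearts (squares) and CLP lungs (diamonds); filled symbols were called at an adjusted p below 0.05. Filled symbols occur in peritoneal cells only, heart values lie below 0, and lung values lie on both sides of 0 with wide errors.

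Whether the response differed between organs was tested with the organ-by-treatment term over the 12 CLP libraries. edgeR called 0 of 18318 genes, 797 genes had an unadjusted p below 0.05 and DESeq2 called 14, none of them among the 10. The heart effect minus the lung effect of Egr2 was -2.88 (SE 1.01, unadjusted p = 0.0153 and adjusted p = 0.960 by edgeR), and -1.34 without vehicle mouse 2. With the mouse as a replicate block, Egr2 was at -2.61 (unadjusted p = 0.0441) and Fos, at -1.10 without the block, was at -1.11 (unadjusted p = 0.0368), both with an adjusted p of 0.948 by edgeR. Fosl1 was at -2.41 (SE 1.02, unadjusted p = 0.0364 by edgeR), at -1.83 with the block (unadjusted p = 0.175) and at -0.66 without vehicle mouse 2. Peritoneal cells belong to another experiment and were not tested against the organs.

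Between organs, the fit without the mouse as a block called 3 of the 10 genes lower in heart and 1 higher. Among all genes, 35.9% were lower and 29.1% higher in that fit. With the mouse as a replicate block, which keeps the organs of a mouse together, Fos, Jun, Jund and Junb were called lower in heart. Atf3 was not called there. On a scale shared by the 12 libraries, Jun was at 92.9 to 121 CPM in hearts and 142 to 314 CPM in lungs, lower in heart in 6 of 6 mice (log2 difference -1.40, SE 0.19, adjusted p = 3.91e-05). Fos was at 3.63 to 24.7 and 20.1 to 42.0 CPM (log2 difference -1.54, SE 0.30, adjusted p = 5.95e-04), and Jund at 36.4 to 82.6 and 85.6 to 834 CPM (log2 difference -1.92, SE 0.49, adjusted p = 4.05e-03), each lower in heart in 6 of 6 mice. Without vehicle mouse 2 the Jund difference was -1.18 and that of Atf3, described next, was 0.47. Atf3 was higher in the heart in 5 of 6 mice (log2 difference 0.75, SE 0.30, adjusted p = 0.0463), a call that was lost with the mouse as a replicate block (0.67, adjusted p = 0.110) and without vehicle mouse 1, vehicle mouse 3, β-NMN mouse 1 or β-NMN mouse 2 in turn. With that block Junb, lower in heart in 6 of 6 mice, was called (-0.48, adjusted p = 0.0435 by edgeR), against -0.55 and 0.0901 without it. Fosl1 (1.31), Egr1 (0.30), Fosb (-0.14), Fosl2 (-0.36) and Egr2 (-0.64) did not pass. Without vehicle mouse 2, Egr2 did (-1.41, adjusted p = 5.11e-03 by edgeR), Fosl1 was at 0.49, Fosb at -0.45 and Fosl2 at 0.06.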

How the data were processed

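Per the labels and the methods, RNA was sequenced from peritoneal cells, hearts and lungs, reads were mapped to mm10 with STAR (version 2.7.3a in the submitters' processing notes, an earlier release in the methods) and counted per gene with featureCounts 2.0.0. The authors deposited raw counts for 54658 symbols per library in a table for each experiment, and 0 sample columns were left unused. Replicate number 3 stands on both β-NMN hearts of mice that gave lungs 2 and 3, and the heart from the mouse of lung 2 was renumbered 2. For the organs, source labels name thioglycollate, whereas titles and tissues give CLP.

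Separate fits per tissue were made in edgeR 4.0.16 (R 4.3.3), using filterByExpr, TMM, estimateDisp and the older quasi-likelihood F-test, with Benjamini-Hochberg adjustment over all genes tested at 0.05. All 10 genes passed the filter in every fit. Alternatives were DESeq2 size factors, DESeq2 1.42.0, limma-voom (limma 3.58.1), no filter, the newer quasi-likelihood form, the replicate block, both organs in a single fit, leaving out each library and, added after seeing the data, each depth range and the gene groups without vehicle mouse 2. Exact permutation tests (two-sided, on log2 CPM with 0.5 counts added) and figures used Python 3.11.15 with NumPy 2.4.6, pandas 2.3.3 and matplotlib 3.10.9. RPKM used the union of GENCODE M21 exons, where 54106 symbols were found. The fits were tested on simulated counts.

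The genes, groups and tests were chosen with earlier results of these data known. Named genes were the 10, up to 4 genes of each group with the smallest p among those called in a tissue (2 where none was called), and the 3 genes most like Fos and Atf3 above a mean log2 CPM minimum of 3. Some genes that this rule or a count would name are not reported here. Same-numbered vehicle and β-NMN libraries come from different mice and their deviations did not correlate in every pair (r from -0.16 to 0.13 in peritoneal cells, 0.07 to 0.25 in hearts and -0.50 to 0.29 in lungs), whereas heart and lung of a mouse are paired by the animal. No pair of libraries of a group agreed within sampling noise (smallest chi-square per gene 22.4). The labels give separate mice for vehicle and β-NMN, and p-values of treatment within a tissue measure the spread between mice. The main fits across organs treated the 2 organs of a mouse as independent. Their p-values therefore do not measure the spread between mice alone.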

Additional observations from a re-analysis of the deposited data

Results flagged for a closer look

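Junb in vehicle peritoneal cells had its lowest library, replicate 6, at 2020 CPM. The gap to the nearest of the other 5 vehicle libraries, at 2270 CPM, was 0.757 of the whole range of the group, above the limit for a sample far from the others. Chance flags about 1 in 20 groups. That library still lay above the highest β-NMN library, at 1490 CPM.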

How the results depend on the processing

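In peritoneal cells, 7733 genes were called, with 7 of the 10 AP-1 and Egr genes lower and 1 higher, and leaving out each library gave 7132 to 8049 genes. Among libraries of the lower depth range, chosen after seeing the data, 4244 genes and 0 higher genes of the 10 were called, and in the higher range Egr2 was at 0.14. In hearts, where 0 genes were called, 3 were called without the low-count filter, 283 by DESeq2 and 3 by limma-voom, and 0 to 5 when each library was left out. Of the 10 genes, 5 were called lower by DESeq2, 1 by limma-voom, and 0 to 1 when each library was left out. Jun in hearts was at 0.03 by limma-voom and at -0.18 to 0.04 when each library was left out, the highest without vehicle mouse 2.

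In lungs DESeq2 called 9 genes and limma-voom 7. Fosb in lungs was at -0.79 by limma-voom, -0.10 without vehicle mouse 2 and -0.26 without β-NMN mouse 2, in a range of -0.26 to 1.18 when each library was left out. The same ranges were -0.02 to 0.41 for Jun, -2.04 to 0.05 for Jund and -0.11 to 0.37 for Egr2, each with a changed sign without vehicle mouse 2, and -0.27 to 0.17 for Atf3, which was at 0.17 without vehicle mouse 3 and 0.09 without β-NMN mouse 1. Between organs, 0 to 1 of the 10 genes were higher in heart when each mouse was left out. Fosb was at -0.45 to 0.22 when each was left out (0.02 without β-NMN mouse 1 and 0.22 without β-NMN mouse 2), and Fosl2 at -0.41 to 0.06, the highest without vehicle mouse 2. For the heart effect minus the lung effect, 2 genes were called without the filter and 14 by DESeq2, and leaving out each mouse gave -0.49 to 0.40 for Fosl2, -0.54 to 0.10 for Jun and -0.12 to 1.80 for Jund, with a changed sign without vehicle mouse 2. The cause of these changes was not tested.

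With the replicate block, 7010 genes were called in peritoneal cells, 7 of the 10 lower and 1 higher, and 0 genes in hearts and in lungs. Numbers there do not mark shared mice. With the mouse as a replicate block, 11699 genes differed between heart and lung (11909 without it), 4 of the 10 lower and 0 higher in heart, with Fosb at 0.02, and Fosl2 was at -0.11 for the difference of effects. Lengths of the longest transcript in place of all exons gave Junb 96.0 in place of 75.4 RPKM in vehicle hearts. Low counts of Fosb, Fosl1 and Egr2 in organs, and 3 mice per group, limit the organ values.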
